A study of Mus musculus with 7 samples.

Results

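Kit, Pdpk1, Akt1, Foxo3, Cdkn1b, Tsc1, Tsc2, Mtor and Rps6kb1 form the axis from the KIT receptor through PI3K and AKT to FOXO3 and mTOR that governs the awakening of the primordial follicle, and their RNA was followed in mini-oocytes. These 9 members were taken by gene symbol from the 55364 genes of the expression table, each symbol was present once, and all 9 passed the filter on low values (at least 1 TPM in at least 2 libraries). Mini-oocytes are oocyte-like cells that form on a culture plate without ovarian somatic cells when female mouse embryonic stem cells of the line BVSC H18 express oocyte transcription factors as transgenes. Each factor is fused to a destabilization domain and is kept from degradation by the ligand Shield-1. The 4F line carries Nobox, Figla, Tbpl2 and Lhx8, and the 8F line carries these plus Stat3, Dynll1, Sub1 and Sohlh1.

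The groups were 4F-mini-oocytes at day 7 (n = 2), 4F-mini-oocytes at day 21 (n = 3) and 8F-mini-oocytes at day 21 (n = 2). Every group was grown with 150 ng/mL SCF (stem cell factor, the ligand of KIT), with the ROCK inhibitor Y-27632 at 10 µM and with Shield-1 at 0.5 µM. From day 12 the fresh medium held no Shield-1, so the day 21 groups had it withdrawn and the day 7 group did not. A day 7 sample was a pool of 1000 cells and a day 21 sample a pool of 10 cells. Day, Shield-1 withdrawal and cell number therefore cannot be told apart. The labels do not say that replicates were separate cultures, and p-values then measure the spread between these samples, which may be technical. In pooled cells, fewer cells that express a gene and less RNA per cell cannot be told apart.

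In the mammalian ovary, most oocytes rest in primordial follicles. When KIT on the oocyte binds its ligand, PI3K makes a membrane lipid that recruits the kinases PDPK1 and AKT. AKT then phosphorylates FOXO3, a transcription factor that holds the oocyte at rest while it is in the nucleus, and FOXO3 moves to the cytoplasm. AKT also acts on the TSC1-TSC2 complex, which restrains mTORC1, the kinase complex that drives growth through S6 kinase. CDKN1B (p27) is a cell cycle inhibitor that also keeps follicles at rest. Much of this pathway works by phosphorylation and by movement within the cell, which RNA levels do not measure.

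Levels were deposited as TPM, a read count corrected for exon length and set to a common total, so levels can be compared between genes. The libraries held between 9506135 and 18027834 read pairs on genes as recovered from the TPM, and each member had between 411 (Akt1) and 12582 (Foxo3) of them per library. All 10 markers of oocytes were at 1 TPM or more in every library, with a summed level of 11472 to 13172 TPM at day 7, 30197 to 32905 TPM in 4F at day 21 and 27071 to 27906 TPM in 8F. The 10 markers of granulosa and other ovarian somatic cells summed to 8.07 to 8.31 TPM at day 7, 4.33 to 9.76 TPM in 4F at day 21 and 13.8 to 17.1 TPM in 8F. In that order of groups, 2, 1 and 4 of them were at 1 TPM or more in every library. Pecam1 was at 2.46 to 10.7 TPM over the libraries, and in 8F Foxl2 was at 1.49 to 2.69 TPM and Cyp19a1 at 1.18 to 1.64 TPM. Star was highest at day 7, at 4.00 and 4.52 TPM, and was at 0.951 to 1.39 TPM in 4F at day 21 and 2.04 to 2.19 TPM in 8F. Fshr was at 2.53 TPM in the third 4F day 21 library. Inha was at 0 in all libraries and Amh and Wt1 at 0 in all 4F libraries. The 8 markers of pluripotent stem cells summed to 87.6 to 100.3 TPM at day 7, 244 to 361 TPM in 4F at day 21 and 152 to 189 TPM in 8F. They did not move together in 4F: the mean of Pou5f1 was 27.3 TPM at day 7 and 196 TPM at day 21 and that of Esrrb 8.12 and 36.7 TPM, while that of Zfp42 was 21.2 and 7.30 TPM. Nanog was at 0 in every day 21 library, and the part of these other markers in the results was not tested. The 8F values were deposited with up to 17 decimals and all 4F values with up to 9. Any difference in how the 2 lines were processed and the factors they carry cannot be told apart.

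Kit, the receptor of the axis, rose between day 7 and day 21, and none of the other 8 members passed the test on TPM. In 4F-mini-oocytes, 1 of the 9 members was called between the days and it was higher at day 21 (limma on log2(TPM + 1), Benjamini-Hochberg adjusted p under 0.05), where 40.6% of all genes tested were called, 25.3% higher and 15.3% lower. The groups of 2 members did not overlap (Kit and Cdkn1b), beside 56.7% of all genes. Between 8F at day 21 and 4F at day 7, again Kit alone was called on TPM, and it was higher. Of all genes, 37.2% were called there (24.2% higher and 13% lower). In that comparison 8 members, all but Rps6kb1, had groups that did not overlap, beside 72.3% of all genes. These comparisons share the day 7 libraries. The median log2 fold change of the members was 0.04 and 0.30, beside 0.17 and 0.24 for all genes. Between 8F and 4F at day 21, 0 of the 9 passed with limma and 2 (Foxo3 and Akt1) had an unadjusted p under 0.05, where 8.37% of all genes passed (3.95% higher and 4.41% lower in 8F). Their median was −0.07, beside 0.06 for all genes. A count model on the recovered reads (voom) called the same 2 genes, and with median-of-ratios library sizes it called Foxo3 alone.

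**Figure D1:**
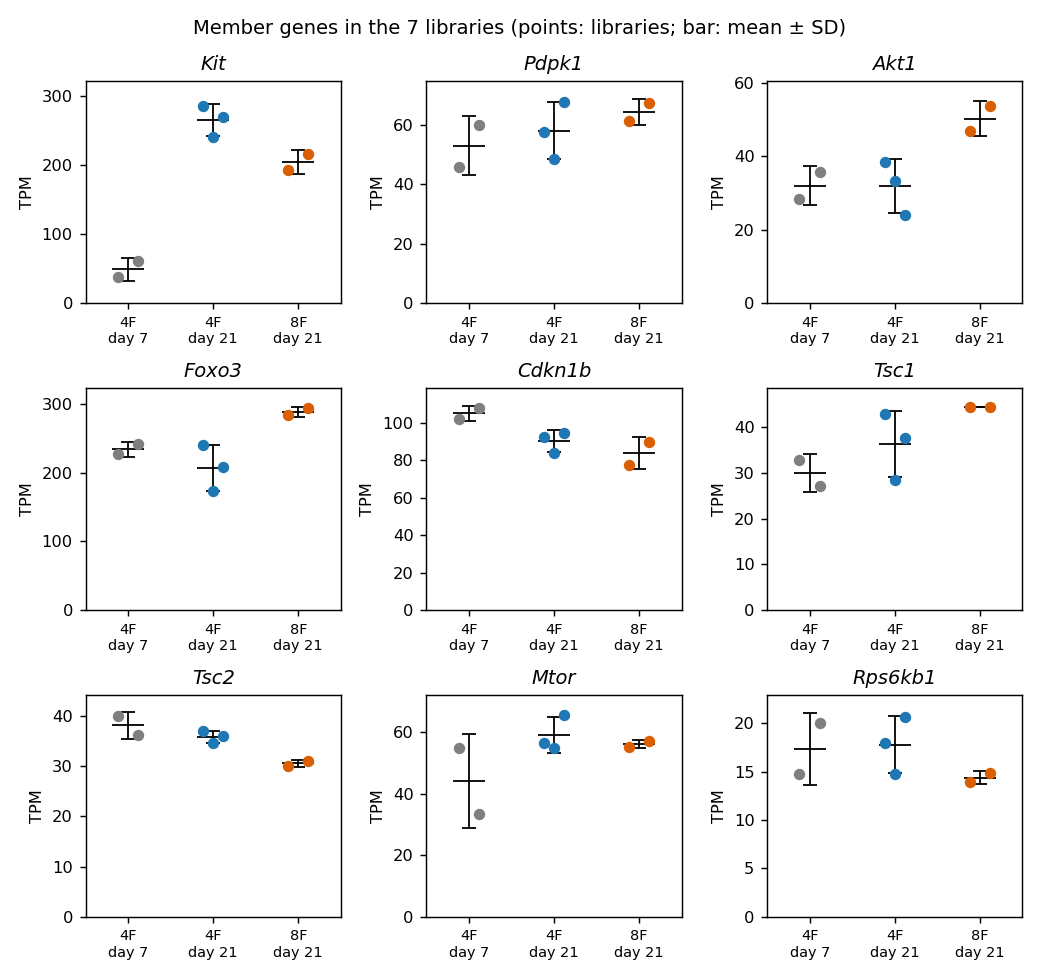
Level of each member in TPM (y axis, from 0) in the 7 libraries, grouped on the x axis as 4F day 7, 4F day 21 and 8F day 21. Points are libraries and bars are the mean ± SD. Kit separates the days, from 37.3 to 61.0 TPM at day 7 to between 192 and 286 TPM at day 21, while the other members keep levels of the same order in every group.

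**Figure D2:**
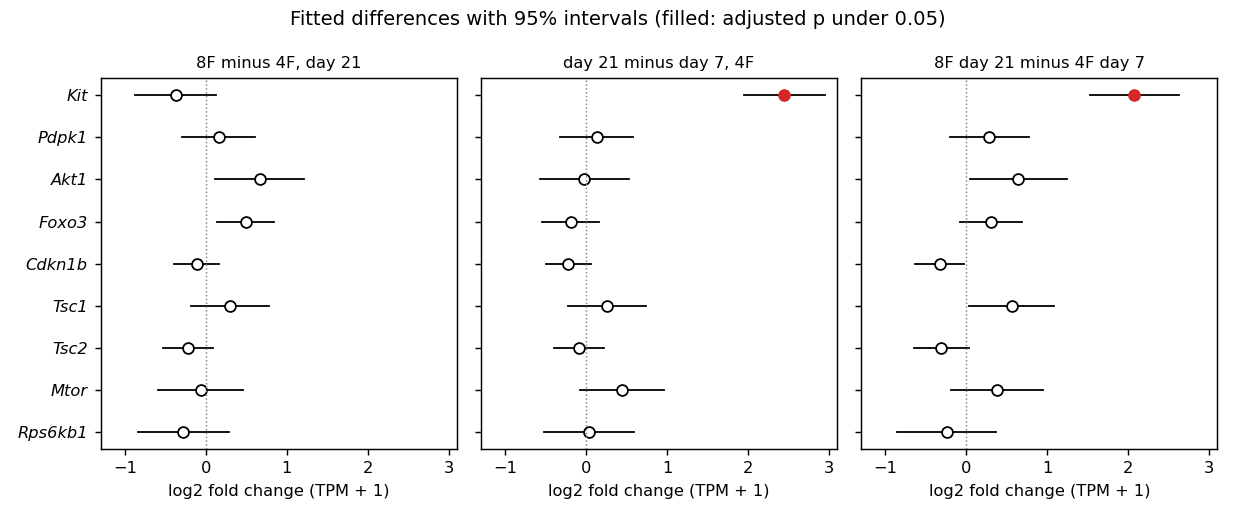
Fitted log2 fold change on the log2(TPM + 1) scale (x axis, points) with 95% intervals (lines) of the 9 members (rows) in the 3 comparisons (panels). Filled red points have an adjusted p under 0.05. Kit stands at 2.45 and 2.07 in the comparisons with day 7, and in the 8F minus 4F panel the intervals of Akt1 and Foxo3 lie above 0 without passing the adjusted threshold.

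Kit encodes the receptor tyrosine kinase for SCF. In 4F-mini-oocytes at day 7 it was at 37.3 and 61.0 TPM. At day 21 it was at 286, 241 and 269 TPM in 4F and at 192 and 217 TPM in 8F. The 3 groups did not overlap, with 4F at day 21 highest and day 7 lowest. The mean in 4F was 49.2 ± 16.8 TPM at day 7 (SD, n = 2) and 265 ± 22.7 TPM at day 21 (SD, n = 3). This rise was 2.45 ± 0.208 on the log2 scale (standard error of the fit, adjusted p = 0.00029, limma), or 5.45-fold with a 95% interval of 3.86 to 7.70. Against the same day 7 libraries, Kit in 8F (204 ± 17.2 TPM, SD, n = 2) was higher by 2.07 on the log2 scale (adjusted p = 0.000996, limma). In rank, Kit moved from above 87.2% of tested genes at day 7 to above 97.5% in 4F and 96.7% in 8F at day 21.

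Although both 8F libraries lay below all 3 4F libraries at day 21, the difference in Kit did not pass the test. It was −0.37 on the log2 scale (adjusted p = 0.363, limma), or a ratio of 0.772 with a 95% interval of 0.547 to 1.09. Of the 9 members, 5 (Kit, Akt1, Foxo3, Tsc1 and Tsc2) had groups that did not overlap in this comparison, beside 43.8% of all genes tested.

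The Kit gene (ENSMUSG00000005672.12) spans chr5:75574916-75656722 of mm10 on the plus strand, with 8911 bases of exon. The stretch next to its 5′ end is shown for Kit, Foxo3 and Akt1, the receptor and the 2 members with the lowest p between 8F and 4F, taken from RefSeq (GRCm38.p6, the assembly of mm10) and ended where the gene begins. Capitals mark the motifs that were searched for, of which Kit and Foxo3 hold none.
Kit, chr5:75574737-75574915, plus strand: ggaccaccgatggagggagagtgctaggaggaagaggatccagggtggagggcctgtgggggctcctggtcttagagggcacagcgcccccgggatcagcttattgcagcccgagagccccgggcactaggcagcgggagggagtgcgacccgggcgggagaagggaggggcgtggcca
Foxo3, chr10:42276756-42276945, minus strand: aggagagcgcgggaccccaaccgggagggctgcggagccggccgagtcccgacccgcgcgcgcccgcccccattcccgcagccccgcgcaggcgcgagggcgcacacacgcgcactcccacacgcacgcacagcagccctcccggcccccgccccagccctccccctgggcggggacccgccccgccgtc
Akt1, chr12:112674885-112675134, minus strand: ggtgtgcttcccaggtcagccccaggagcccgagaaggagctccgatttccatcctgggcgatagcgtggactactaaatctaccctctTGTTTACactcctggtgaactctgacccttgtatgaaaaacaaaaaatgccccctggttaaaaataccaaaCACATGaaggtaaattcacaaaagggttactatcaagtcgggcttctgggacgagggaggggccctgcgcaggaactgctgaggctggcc
In Akt1 the first run of capitals is the FOXO motif (GTAAACA, here read on the other strand) and the second an E-box (CANNTG). The motifs were searched on both strands in the 250 bases before each RefSeq start site (12 windows for the 9 members), and a NOBOX motif (TAATTG) was searched as well. The FOXO motif was in 1 member (Akt1, its first base 161 bases before the start site), beside 3.17% of 32851 mouse promoters of that length. An E-box was in 4 members (Akt1, Pdpk1, Tsc1 and Tsc2), beside 66.2% of promoters, and the NOBOX letters were in none of these windows, beside 7.17%. The 2 matches shown in Akt1 do not overlap. These matches describe the letters and not binding. The windows of Kit and Foxo3 were rich in G and C (70.8% and 76.4%, beside a median of 52.4% over all promoters), and that of Akt1 was at 52.0%.

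Among genes for growth factor receptors and their adaptors, 3 adaptor genes fell between the days in 4F. Genes of the pathway outside the 9 members were read from 12 lists with 113 genes, of which 104 passed the filter, and genes named beyond the fixed rule complete a small count or show a neighbour of a member, chosen after their values were seen. Kitl, which encodes the KIT ligand, was at 11.04 and 7.03 TPM at day 7, at 4.87, 2.45 and 1.94 TPM in 4F at day 21 and at 2.64 and 3.44 TPM in 8F, with an adjusted p of 0.0543 between days in 4F (limma). In 4F between the days, 3 of 9 tested genes of this list passed the test (33.3%, beside 40.6% of all genes tested). They were the docking protein gene Gab1 and the adaptor genes Grb2 and Shc1, and all 3 fell. The list's median was −0.60, beside 0.17 for all genes. Under 4 other scalings of the libraries (median of ratios, quantile normalization and 2 voom fits) 5 to 8 of its genes were called, all lower. Kitl was among them with median of ratios and both voom fits, but not with quantile normalization. Gab1 fell by 1.19 on the log2 scale from 64.8 and 77.7 TPM to 32.0, 39.3 and 22.6 TPM (adjusted p = 0.00778, limma). Between 8F at day 21 and 4F at day 7, 4 of the 9 genes were called on TPM (44.4%, beside 37.2% of all genes). These were Gab1, Igf1r, Shc1 and Sos1, all lower, and Grb2 was not among them.

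Grb2, the adaptor that links receptors to RAS, fell from 81.4 and 85.8 TPM at day 7 to 50.8, 36.6 and 39.7 TPM in 4F at day 21 (log2 fold change −0.98, adjusted p = 0.00387, limma). In 8F at day 21 it was at 92.8 and 104 TPM, higher than 4F by 1.21 on the log2 scale (adjusted p = 0.0109, limma). Sos1, the exchange factor that GRB2 brings to RAS, went the other way, from 39.8, 36.2 and 35.04 TPM in 4F to 21.6 and 24.1 TPM in 8F (−0.67, adjusted p = 0.0327, limma).

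Among PI3K subunits, 5 of 10 tested genes (50%) passed between day 7 and day 21 in 4F, beside 40.6% of all genes tested. Of these, 4 were higher (Pik3cd, Pik3r4, Pik3r1 and Pik3c3) and 1 was lower (Pik3r2), and the list's median was 0.10. Under the 4 other scalings the same 4 genes were higher, and 4 or 5 were lower. Pik3cd, the catalytic subunit p110δ, was at 97.0 and 79.6 TPM at day 7 and at 338, 287 and 316 TPM at day 21 (log2 fold change 1.82, adjusted p = 0.000132, limma). At day 21 its mean of 314 ± 25.5 TPM (SD, n = 3) stood far above Pik3ca (16.8 ± 3.52 TPM) and Pik3cb (10.3 ± 5.04 TPM), which encode the other measured class I catalytic subunits, p110α and p110β. Pik3cg was listed at 0 in all libraries. The regulatory gene Pik3r1 (p85α) rose from 31.8 and 47.1 TPM to 131, 106 and 112 TPM, whereas Pik3r2 (p85β) fell from 49.1 and 45.0 TPM to 19.3, 13.3 and 27.4 TPM (−1.25, adjusted p = 0.0139, limma).

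Pik3r4 and Pik3c3 encode the VPS15 and VPS34 subunits of the class III enzyme, which serves endosomes and autophagy. Pik3r4 rose from 44.3 and 53.5 TPM to 171, 165 and 185 TPM (log2 fold change 1.81, adjusted p = 0.00012, limma). Of 7 phosphatase genes tested, 3 passed in the same comparison (42.9%, beside 40.6% of all genes tested). Inpp5d (0.74) and Ppp2r5c (0.63) rose and Inppl1 fell (−0.60), with adjusted p from 0.00591 to 0.0352 (limma). The calls on Inpp5d and Ppp2r5c were lost under all 4 other scalings, while Inppl1 stayed lower in each of them and the call held in 8 of 18 other settings overall. The list's median was −0.09.

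Pdpk1, the kinase that activates AKT and S6 kinase, was at 46.0 and 60.0 TPM at day 7, at 57.8, 48.5 and 67.8 TPM in 4F at day 21 and at 61.2 and 67.3 TPM in 8F. The 4F groups overlapped, and both 8F libraries lay within the range of 4F at day 21. The gene (ENSMUSG00000024122.16) lies at chr17:24073680-24150924 (minus strand). The difference between days in 4F was 0.13 on the log2 scale (adjusted p = 0.619, limma), or a ratio of 1.09 with a 95% interval of 0.803 to 1.49.

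Akt1 was at 28.3 and 35.7 TPM at day 7 and at 38.5, 33.2 and 23.9 TPM in 4F at day 21. In 8F it was at 46.9 and 53.6 TPM, above all 5 4F libraries. The gene (ENSMUSG00000001729.14) lies at chr12:112653821-112674884 (minus strand). The mean in 8F was 50.3 ± 4.70 TPM (SD, n = 2) and that in 4F at day 21 was 31.9 ± 7.39 TPM (SD, n = 3). The difference was 0.66 ± 0.229 on the log2 scale (standard error of the fit, adjusted p = 0.148, limma), or 1.58-fold with a 95% interval of 1.08 to 2.32. It did not pass the adjusted threshold on TPM. Of 18 other settings, 1 called it, which was voom on the recovered reads (adjusted p = 0.038). With voom on median-of-ratios library sizes the adjusted p was 0.085. Between days in 4F the difference was −0.02 with a ratio of 0.984 and an interval of 0.673 to 1.44. Akt2, a close relative of Akt1, was at 19.8 to 32.4 TPM over the 7 libraries.

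Foxo3 was the most abundant member at day 7 and in 8F at day 21, and the next after Kit in 4F at day 21. It was at 227 and 242 TPM at day 7. In 4F at day 21 it was at 240.3, 173 and 208 TPM, and in 8F at 283 and 294 TPM. Both 8F libraries lay above all 4F libraries, and the 4F groups of day 7 and day 21 overlapped. The gene (ENSMUSG00000048756.11) lies at chr10:42181841-42276755 (minus strand). The mean at day 21 was 289 ± 7.54 TPM in 8F (SD, n = 2) and 207 ± 33.7 TPM in 4F (SD, n = 3). The difference was 0.49 ± 0.147 on the log2 scale (standard error of the fit, adjusted p = 0.103, limma), or 1.41-fold with a 95% interval of 1.10 to 1.79. Of 18 other settings, 2 called it, both of them voom (adjusted p = 0.00506 and 0.0202), and the value ranged from 0.37 to 0.64. Between days in 4F the difference was −0.19 (adjusted p = 0.347, limma).

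The other FOXO genes were lower in level than Foxo3. Of 3 tested, 2 rose between days in 4F under all 5 scalings. Foxo1 rose from 28.1 and 28.5 TPM to 55.1, 51.4 and 52.3 TPM in 4F (log2 fold change 0.88, adjusted p = 0.00137, limma) and was at 65.8 and 69.4 TPM in 8F. Foxo6 was listed at 0 at day 7 and was at 5.71, 2.11 and 2.92 TPM in 4F at day 21, with an adjusted p of 0.0133 (limma). Foxo4 was at 15.7 and 5.00 TPM at day 7 and between 2.25 and 6.98 TPM at day 21.

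Of 11 tested FOXO target genes, 2 rose and 2 fell between days in 4F (36.4%, beside 40.6% of all genes tested). The list's median was 0.10. Bcl2l11, which encodes the cell death protein BIM, rose from 2.79 and 7.16 TPM to 19.6, 19.5 and 21.2 TPM (log2 fold change 1.92, adjusted p = 0.00546, limma). Txnip, an inhibitor of thioredoxin, rose by 1.20, and Cat, the catalase gene, fell by 0.98 on the log2 scale. The transcription factor gene Klf6 fell from 46.5 and 49.2 TPM to 6.90, 14.6 and 8.58 TPM (−2.21, adjusted p = 0.00214, limma).

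Cdkn1b was at 102 and 108 TPM at day 7, at 92.6, 83.8 and 94.5 TPM in 4F at day 21 and at 77.7 and 89.8 TPM in 8F. All 5 day 21 libraries lay below both day 7 libraries, and 4F and 8F overlapped. The gene (ENSMUSG00000003031.14) lies at chr6:134920401-134925513 (plus strand). The log2 difference was −0.22 between days in 4F (adjusted p = 0.185, limma) and −0.33 between 8F at day 21 and 4F at day 7 (adjusted p = 0.0869, limma). The latter is a ratio of 0.797 with a 95% interval of 0.646 to 0.984.

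The other CDK inhibitors of its family, Cdkn1c and Cdkn1a, fell between the days. Cdkn1c (p57) fell from 194 and 379 TPM at day 7 to 37.3, 49.2 and 23.6 TPM in 4F at day 21 (log2 fold change −2.91, adjusted p = 0.00166, limma) and was at 15.9 and 22.7 TPM in 8F. Cdkn1a (p21) fell from 26.9 and 49.3 TPM to 9.52, 11.3 and 15.9 TPM (−1.53, adjusted p = 0.0181, limma). At day 7 Cdkn1c was above Cdkn1b in both libraries, and at day 21 it was below Cdkn1b in all 5. Of the 7 genes tested for CDK inhibitors and their partners, Cdkn1c and Cdkn1a alone passed between days (28.6%, beside 40.6% of all genes tested). The list's median was −0.26. Between 8F and 4F, the cyclin E gene Ccne1 was the gene of that list that passed, at 41.2, 37.6 and 37.5 TPM in 4F and 17.7 and 19.5 TPM in 8F (−1.02, adjusted p = 0.0211, limma).

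Tsc1, the stabilizing subunit of the TSC complex, was at 32.9 and 27.2 TPM at day 7, at 43.0, 28.6 and 37.6 TPM in 4F at day 21 and at 44.5 TPM in both 8F libraries. Tsc2, the subunit that acts on RHEB, was at 40.03 and 36.3 TPM at day 7, at 37.0, 34.6 and 35.9 TPM in 4F at day 21 and at 30.0 and 31.0 TPM in 8F. The 8F libraries were above all 4F libraries for Tsc1 and below all of them for Tsc2. Neither difference between 8F and 4F at day 21 passed the test (Tsc1 0.30 with an adjusted p of 0.454, Tsc2 −0.23 with an adjusted p of 0.374, limma). The ratio of Tsc1 to Tsc2 within a library was 0.823 and 0.749 at day 7, 1.16, 0.824 and 1.05 in 4F at day 21 and 1.48 and 1.44 in 8F. This ratio is not changed by a factor common to a whole library, and its 8F values lay above all others. It was among a few chosen ratios and was not tested, and how many other gene pairs separate in this way was not counted.

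Tsc1 (ENSMUSG00000026812.16) lies at chr2:28641228-28691167 (plus strand) and Tsc2 (ENSMUSG00000002496.10) at chr17:24595816-24632630 (minus strand). Tsc2 shares 693 bases of exon (7.20% of its exon length) with Pkd1 on the opposite strand. No strand option is stated for the counting, so reads of Pkd1 in these bases could have been counted for Tsc2, as a fraction. Between 8F at day 21 and 4F at day 7, Tsc1 was higher by 0.56 (adjusted p = 0.0915, limma) and Tsc2 lower, at −0.31 (adjusted p = 0.132, limma). The third TSC subunit gene Tbc1d7 and the RHEB genes Rheb and Rhebl1 did not pass between days in 4F (0.56, −0.31 and 0.88 on the log2 scale, adjusted p from 0.181 to 0.383, limma), nor at an unadjusted p under 0.05, and 1 of the 3 passed with voom (Rheb, lower).

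Mtor was at 55.0 and 33.4 TPM at day 7, at 56.4, 54.8 and 65.6 TPM in 4F at day 21 and at 55.2 and 57.0 TPM in 8F. Of the 7 libraries, 6 lay between 54.8 and 65.6 TPM, and the second day 7 library was the low one. The gene (ENSMUSG00000028991.15) lies at chr4:148448611-148557683 (plus strand). The difference between days in 4F was 0.45 on the log2 scale (adjusted p = 0.152, limma), or 1.36-fold with a 95% interval of 0.950 to 1.95. Without the first day 7 library, which leaves the low library alone at day 7, it was 0.80 with an adjusted p of 0.0148 in the limma fit, which takes the lone library to vary like the other groups. Between 8F and 4F at day 21 the ratio was 0.955 with an interval of 0.666 to 1.37.

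Of 8 tested subunits of the mTOR complexes, 4 (50%) passed between days in 4F, beside 40.6% of all genes tested. All 4 rose, namely Prr5, Deptor, Akt1s1 and Mapkap1, and the list's median was 1.12. Under the 4 other scalings 3 or 4 were higher and Rictor was lower. Prr5, a subunit of mTORC2, rose from 16.4 and 7.19 TPM to 53.4, 53.2 and 62.2 TPM (log2 fold change 2.26, adjusted p = 0.00191, limma). Deptor, an inhibitor bound to mTOR, rose from 49.3 and 46.7 TPM to 143, 151 and 126 TPM (1.52, adjusted p = 0.000281, limma). Mapkap1 encodes the mTORC2 subunit SIN1 and Akt1s1 the mTORC1 inhibitor PRAS40, and they rose by 1.16 and 1.23. Rptor and Rictor, the scaffolds that define mTORC1 and mTORC2, were at −0.07 and −0.39 (adjusted p = 0.887 and 0.0807, limma).

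The ratio of Rptor to Rictor was 0.623 and 0.389 at day 7, 0.578, 0.496 and 0.832 in 4F at day 21 and 0.966 and 1.05 in 8F. Both 8F values lay above the others, and this chosen ratio was not tested either. Prr5l, a relative of Prr5, was at 3.01, 2.18 and 4.85 TPM in 4F at day 21 and at 13.1 and 14.4 TPM in 8F (1.81, adjusted p = 0.0433, limma).

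Rps6kb1, which encodes the S6 kinase p70, was the lowest member in every group. It was at 14.7 and 20.02 TPM at day 7, at 17.9, 14.8 and 20.7 TPM in 4F at day 21 and at 13.9 and 14.9 TPM in 8F. All groups overlapped. The gene (ENSMUSG00000020516.15) lies at chr11:86498871-86544805 (minus strand) and shares 155 bases of exon (1.79%) with Rnft1 on the opposite strand. Its difference was 0.04 between days in 4F (ratio 1.03, 95% interval 0.696 to 1.51) and −0.28 between 8F and 4F (ratio 0.825, interval 0.560 to 1.22).

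Downstream of mTORC1, 6 of 13 tested genes (46.2%) passed between days in 4F, beside 40.6% of all genes tested. Of these, 5 were higher and 1 lower, and the list's median was −0.17. Under the 4 other scalings 3 or 4 were higher and 2 to 5 lower. Rps6, the ribosomal protein that S6 kinase phosphorylates, fell from 663 and 687 TPM to 197, 266 and 252 TPM (log2 fold change −1.51, adjusted p = 0.000412, limma). The higher genes were Eef2k, Grb10, Lpin1, Eif4b and Ulk1. Eef2k, the kinase that slows translation elongation, rose from 35.1 and 32.8 TPM to 139.5, 109.6 and 119 TPM (1.81, adjusted p = 0.000174, limma), and Grb10, an adaptor that damps receptor signalling, rose from 14.3 and 19.6 TPM to 77.1, 56.0 and 59.9 TPM (1.87, adjusted p = 0.00065, limma).

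Genes that carry energy and stress signals to mTORC1 were called at 9 of 14 (64.3%) between days in 4F, beside 40.6% of all genes. Of these, 8 were higher and 1 lower, and the list's median was 0.53. Under the 4 other scalings 3 to 5 were higher and 2 to 4 lower. Ddit4 (REDD1), a stress-induced inhibitor of mTORC1, was at 0.436 and 0 TPM at day 7, which are 3 and 0 read pairs, and at 51.7, 63.5 and 59.2 TPM at day 21. Its difference of 5.62 on the log2(TPM + 1) scale (adjusted p = 3.79e-05, limma) depends on the pseudocount and was 3.59 with a pseudocount of 5. Prkab1, a regulatory subunit of the energy sensor AMPK, rose from 16.6 and 12.4 TPM to 78.0, 37.8 and 69.1 TPM (1.96, adjusted p = 0.00327, limma). Of the GSK3 kinases, which AKT inhibits, Gsk3a rose by 1.18 and Gsk3b fell by 0.59 on the log2 scale. The call on Gsk3b held in 9 of 18 other settings and was lost without either day 7 library.

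Amino acid sensing genes were called at 7 of 16 (43.8%, beside 40.6% of all genes tested). On TPM all 7 were higher at day 21 (list median 0.59), but 1 to 3 were higher and 1 to 3 lower under the 4 other scalings. Rragc, a RAG GTPase that brings mTORC1 to the lysosome, rose by 1.55 (adjusted p = 0.000171, limma). Castor1, an arginine sensor, rose from 2.27 and 1.34 TPM to 7.46, 19.5 and 9.54 TPM (2.14, adjusted p = 0.01, limma). Its day 7 values are 14 and 11 read pairs, and the call held in 15 of 18 other settings but in neither voom fit. Rragb was at 0.564 and 4.07 TPM at day 7 and at 7.75, 13.5 and 6.23 TPM at day 21 (1.79, adjusted p = 0.0471, limma), a call that held in 2 of 18 other settings.

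Over all lists, 46 of 104 genes (44.2%) passed between days in 4F, near the 40.6% of all genes tested, with 35 higher and 11 lower. That split depends on how the libraries are scaled. Rescaling by the median of ratios gave 25 higher and 24 lower, quantile normalization 21 and 21, voom 19 and 37, and voom on median-of-ratios library sizes 24 and 28. The median log2 fold change of the 104 genes was 0.15, beside 0.17 for all genes. Between 8F at day 21 and 4F at day 7, 52 of 104 passed (50%, beside 37.2% of all genes tested), with 39 higher and 13 lower on TPM, beside 24.2% and 13% of all genes. In the same order of scalings the split was 30 and 23, 30 and 23, 27 and 26, and 30 and 25. With the filter at 5 TPM, 54 of 100 pathway genes passed in this comparison, beside 47.1% of all genes.

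**Figure D3:**
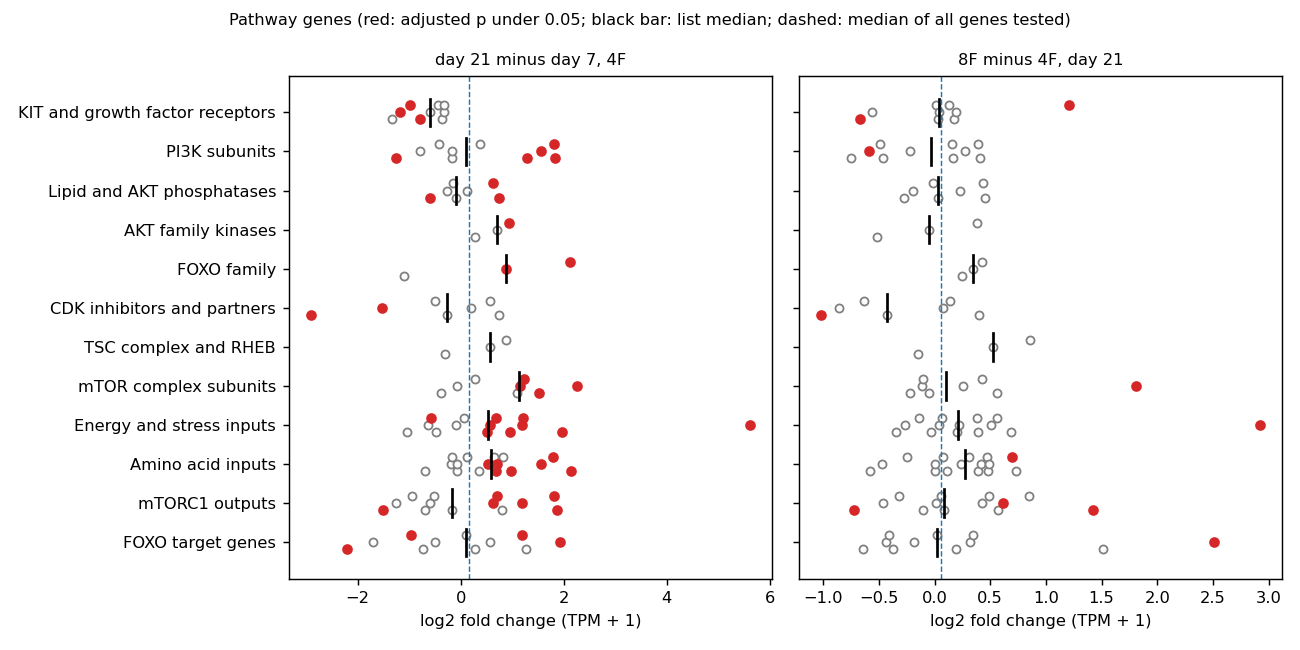
Log2 fold change on the log2(TPM + 1) scale (x axis) of the tested genes of the 12 pathway lists (rows), for day 21 minus day 7 in 4F (left) and 8F minus 4F at day 21 (right). Red points have an adjusted p under 0.05, black bars are list medians, and the dashed line is the median of all genes tested (0.17 and 0.06). Ddit4 lies farthest to the right on the left panel at 5.62, and 11 points are red on the right panel.

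Between 8F and 4F at day 21, 11 of 104 pathway genes passed (10.6%, beside 8.37% of all genes), with 7 higher in 8F and 4 lower. Sesn2, a stress-induced inhibitor of mTORC1 that acts through amino acid sensing, was among those higher in 8F. It was at 12.8, 3.31 and 12.5 TPM in 4F and at 70.3 and 69.0 TPM in 8F (log2 fold change 2.93, adjusted p = 0.0239, limma), and at 15.0 and 22.1 TPM at day 7. Klf2, a FOXO target that is also on the list of pluripotency markers, was at 2.77, 0.748 and 1.29 TPM in 4F and at 14.8 and 11.6 TPM in 8F (2.51, adjusted p = 0.0282, limma). Eif4ebp1, the translation repressor that mTORC1 inactivates, was at 26.0, 31.2 and 24.8 TPM in 4F and at 76.5 and 72.8 TPM in 8F (1.42, adjusted p = 0.0324, limma).

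Rraga (0.70), Rps6 (0.61), Grb2 and Prr5l were also higher in 8F. The calls on Rps6, Rraga and Prr5l held in 5, 6 and 7 of 18 other settings, and all 3 were lost with a pseudocount of 0.1, without the filter and with only the 2 groups in the fit. Lower in 8F were Ccne1, Sos1, Eef2k and Pik3c2a. Eef2k was at 71.8 and 74.8 TPM in 8F (−0.73, adjusted p = 0.025, limma), between its levels in 4F at day 7 and at day 21. Pik3c2a, a class II PI3K, was at 82.2, 81.7 and 79.2 TPM in 4F and at 52.8 and 54.1 TPM in 8F (−0.59, adjusted p = 0.0189, limma). Of 18 other settings, the call on Eif4ebp1 held in 9 and those on Ccne1 and Sos1 in 11. Those on Sesn2, Klf2, Eef2k and Pik3c2a held in 12 and that on Grb2 in 15. The calls between 8F and 4F rest on few libraries. Without either 8F library, 0 of the 104 genes passed with limma, with 22 and 20 genes at an unadjusted p under 0.05, and without one of the 4F day 21 libraries 3 or 4 passed.

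**Figure D4:**
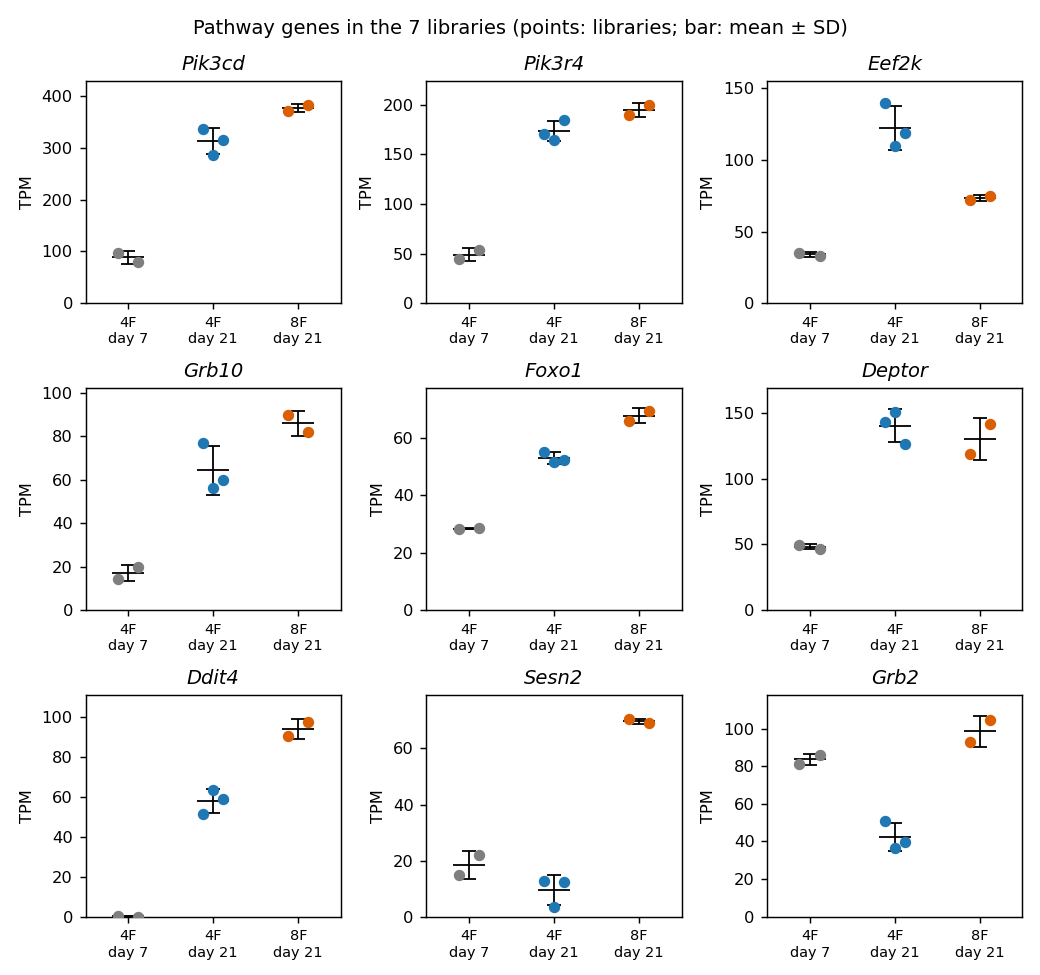
Levels in TPM (y axis, from 0) of 9 pathway genes in the 7 libraries, in the same groups as for the members, with points for libraries and bars for the mean ± SD. Pik3cd, Pik3r4, Eef2k, Deptor and Ddit4 are higher in all 5 day 21 libraries than at day 7, Sesn2 is at 69.0 and 70.3 TPM in 8F alone, and Grb2 is lowest in 4F at day 21.

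Ranked by mean level at day 7, the order of the members was Foxo3, Cdkn1b, Pdpk1, Kit, Mtor, Tsc2, Akt1, Tsc1 and Rps6kb1, and the neighbours from Pdpk1 through Tsc2 overlapped, as did Akt1 and Tsc1. In 4F at day 21 it was Kit, Foxo3, Cdkn1b, Mtor, Pdpk1, Tsc1, Tsc2, Akt1 and Rps6kb1, with overlap of Mtor and Pdpk1 and among Tsc1, Tsc2 and Akt1. In 8F it was Foxo3, Kit, Cdkn1b, Pdpk1, Mtor, Akt1, Tsc1, Tsc2 and Rps6kb1, and no neighbours overlapped in the 2 libraries. The ratio of Kit to Foxo3 within a library was 0.165 and 0.252 at day 7, 1.19, 1.39 and 1.30 in 4F at day 21 and 0.679 and 0.737 in 8F. The 3 groups did not overlap in this ratio, which is not changed by a factor common to a whole library and was not tested.

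Among 8667 well expressed genes (mean level no lower than 10 TPM, without Gm and Rik gene models), those whose pattern over the 7 libraries was most like Kit were Serpinb3a, Poc5 and Col6a6 (Pearson r of log2(TPM + 1) of 0.999, 0.999 and 0.998). For Foxo3 they were Doc2a (0.972), Sesn2 (0.966) and Cd300e (0.965). These are descriptions, over libraries that share day and cell number within a group. Among the members, Akt1 and Foxo3 had an r of 0.74, Cdkn1b and Tsc2 of 0.75, Akt1 and Tsc2 of −0.76 and Kit and Cdkn1b of −0.67 over the 7 libraries.

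The calls on Foxo3, Cdkn1b and Tsc2 between the days depend on the scaling of the libraries. The median log2 fold change of all genes tested between days in 4F was 0.17 on TPM. It was −0.06 with median-of-ratios scaling, 0.04 with quantile normalization, −0.32 with voom and −0.13 with voom on median-of-ratios library sizes. On TPM, Foxo3 (−0.19), Cdkn1b (−0.22) and Tsc2 (−0.08) did not pass. Under each of the 4 other scalings all 3 were lower at day 21 with an adjusted p under 0.05, at −0.54 to −0.78 for Foxo3, −0.56 to −0.82 for Cdkn1b and −0.42 to −0.62 for Tsc2. Relative to the median of all genes, Foxo3 was at −0.36 to −0.82, Cdkn1b at −0.39 to −0.86 and Tsc2 at −0.25 to −0.59 over the 5 scalings, and Kit at 1.83 to 2.28. Pdpk1, Tsc1 and Rps6kb1 changed sign with every other scaling and Mtor with quantile normalization and voom, and none of these differences passed. Between 8F at day 21 and 4F at day 7, Cdkn1b and Tsc2 were also lower with an adjusted p under 0.05 under the 4 other scalings. They were at −0.66 to −0.88 and −0.63 to −0.74 there, and Foxo3 was not called.

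**Figure D5:**
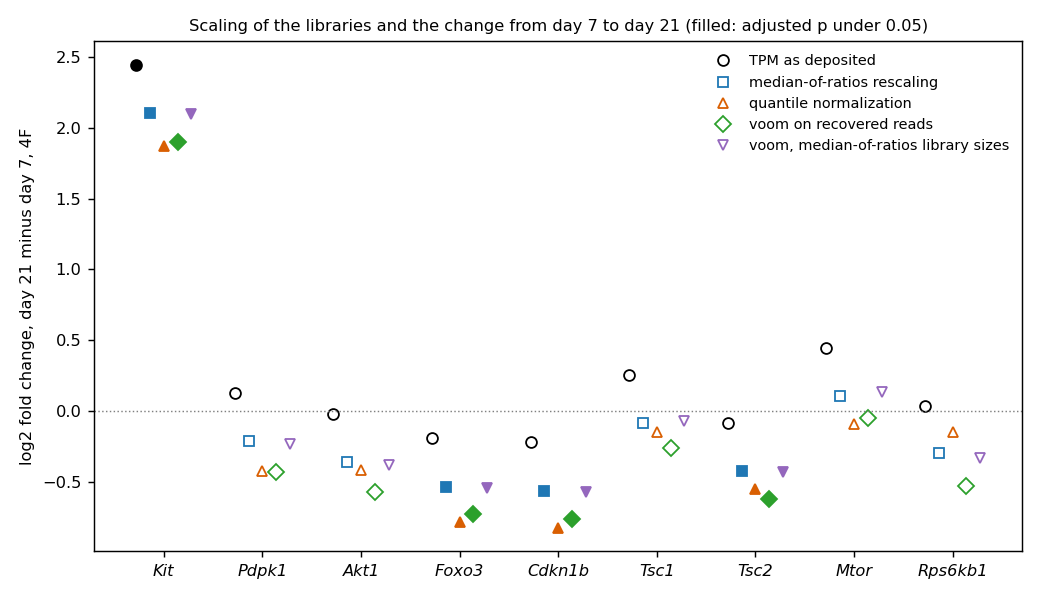
Log2 fold change between day 21 and day 7 in 4F (y axis) of each member (x axis) under 5 scalings of the libraries (marker shapes). Filled markers have an adjusted p under 0.05. Kit is filled under all 5, at 1.87 to 2.45, and Foxo3, Cdkn1b and Tsc2 are filled under the 4 scalings other than TPM as deposited.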

How the data were processed

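RNA-seq was made from 7 libraries in 3 groups with the SMART-seq Stranded kit. The authors trimmed reads (Trim Galore), aligned them to mm10 (HISAT2), removed rRNA reads (bedtools), kept unique reads, counted them on GENCODE vM25 (featureCounts, reads over several genes as fractions) and deposited TPM. Their counts were not used here. The NovaSeq model of each library is not named. Fold changes, standard errors and p-values came from limma 3.58.1 (R 4.3.3, trend) on log2(TPM + 1) of all 7 libraries, for the 21780 of 55364 genes that reached 1 TPM in 2 or more libraries, adjusted over all of them (Benjamini-Hochberg, 0.05), so a fold change understates that of low genes. The test was checked on simulated reads in which a small set of genes differed in 8F alone. That check does not cover the comparisons between days, where far more genes were called, nor the scaling of the libraries. For voom, read pairs were recovered from the steps of low TPM (77.7% to 83.8% of low values whole within 0.02) with exon lengths of GENCODE vM21 (54312 genes matched by identifier and version). Replicates differed by more than counting noise (chi-square per degree of freedom 9.77 to 35.4). Named genes were all 9 members, of each pathway list, for day 21 against day 7 in 4F and 8F against 4F, the 2 largest changes past the threshold without overlap and with at least 5 TPM in the higher group, and the 3 genes most like Kit and Foxo3. The members and lists were chosen with earlier results of these data known. Alternatives were other pseudocounts (0.1 and 5), filters, scalings, models and leaving out each library. The result of 1 gene of the pathway lists, which enters the counts over lists, is not reported here.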

Additional observations from a re-analysis of the deposited data

How the results depend on the processing

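Kit passed the threshold between days in 4F and between 8F at day 21 and 4F at day 7 in all 18 other settings (log2 fold change 1.87 to 2.79 and 1.58 to 2.42), and between 8F and 4F in none of them (−0.46 to −0.23, limma or voom). The voom fit with median-of-ratios library sizes was chosen after seeing the data. Of the members, 2 passed between 8F and 4F with voom (Akt1 and Foxo3) and 1 with voom on median-of-ratios library sizes. Between days in 4F, 4 passed under median-of-ratios rescaling, quantile normalization and both voom fits (main value 1), and leaving out 1 library gave 1 to 2 (2 without the first day 7 library, which added Mtor). Between 8F at day 21 and 4F at day 7, 3 passed under median-of-ratios rescaling, quantile normalization and voom on median-of-ratios library sizes and 4 with voom, and leaving out 1 library gave 1 to 2 (2 without the first day 7, the second 4F day 21 or the third 4F day 21 library, which added Mtor, Tsc1 and Akt1).

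Of the pathway genes, 11 passed between 8F and 4F in the reported fit, 6 without the filter, 23 with voom, 19 with voom on median-of-ratios library sizes, 4 with limma without the trend, and 0 to 14 with 1 library left out. Between 8F at day 21 and 4F at day 7, the count was 52 in the reported fit and 28 to 51 with 1 library left out, the lowest without the second 8F library and 32 without the first.

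The replicate numbers do not pair the libraries: same-number correlations of deviations from the group means were −0.037 to 0.011. With the replicate number as a block (replicate block), 0 pathway genes passed between 8F and 4F (limma, 26 at an unadjusted p under 0.05), and calls over all genes went from 1822 to 164 there, from 8847 to 7241 between days in 4F and from 8103 to 7037 for 8F at day 21 against 4F at day 7. The member counts were as reported.

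Among the members, signs changed only for differences that did not pass in the reported fit. Between 8F and 4F, Cdkn1b was 0.0411 and Mtor 0.0892 with voom, and Mtor was 0.0128 with the replicate block and −0.1152 to 0.0128 with 1 library left out (highest without the third 4F day 21 library). Between days in 4F, under median-of-ratios rescaling, quantile normalization, voom and voom on median-of-ratios library sizes in that order, Pdpk1 was −0.21, −0.42, −0.43 and −0.23, Tsc1 −0.0821, −0.14, −0.26 and −0.0705, and Rps6kb1 −0.29, −0.15, −0.53 and −0.33. Mtor was −0.0878 and −0.0513 with quantile normalization and voom, and with the block Akt1 was 0.16 and Rps6kb1 −0.072. With 1 library left out, Pdpk1 was −0.0597 to 0.317, Akt1 −0.1852 to 0.1643 and Rps6kb1 −0.17 to 0.2448. Between 8F at day 21 and 4F at day 7, under the same 4 scalings, Pdpk1 was −0.0407, −0.24, −0.12 and −0.0607 and Foxo3 −0.0292, −0.20, −0.0906 and −0.0374, and Mtor was −0.12 with quantile normalization. Of pathway genes called between days in 4F, Cab39 was −0.12 and −0.0376 and Rraga −0.0946 and −0.0031 with quantile normalization and voom. The cause was not tested. With 2 or 3 libraries per group, the interval of a member's fold change between 8F and 4F spans from 0.547 to 2.32 over the members, which limits what the data can show.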
